A study of Homo sapiens with 8 samples.

Results

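ZNF711 is a zinc finger gene on the X chromosome, and its mRNA carried 41 of the 22506 Ago2 peaks listed for 293S cells. The peaks were taken by gene symbol from the deposited peak table, where all of them lie on the plus strand and belong to the RefSeq transcript NM_021998. The cells, a line derived from HEK293 (human embryonic kidney), had either received emetine at 20 µg/mL for 60 minutes or been left without treatment as the control. Each treatment was 1 culture. From each, 3 CLIP libraries (crosslinking and immunoprecipitation of Ago2-bound RNA, each with an Ago2 antibody of a different maker: Abnova, Santa Cruz or Sigma) and 1 RNA library were made, 8 libraries in all. The spread between libraries of a treatment is therefore a spread between aliquots and antibodies of 1 culture. ZNF711 was picked because its peaks differed between emetine and control, so every comparison of the treatments below is a description of its values with no test.

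Ago2 is the Argonaute protein that carries microRNAs, which pair with messages mainly through the bases at their 5′ end called the seed. Sites in 3′ UTRs are the ones best known to repress a message, while coding sequence is also bound and is traversed by ribosomes. Emetine stops ribosomes during elongation. The ZNF711 protein belongs to the family of ZFX and ZFY, has a long array of zinc fingers, binds near promoters of active genes and recruits the histone demethylase PHF8. Loss of ZNF711 causes a form of X-linked intellectual disability.

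More seed matches were found in the coding part of the message, its longest part, than in the 3′ UTR. Whether their number differs from that in other genes was not tested. In the GENCODE 29 transcript paired with NM_021998 (GRCh38; 4124 bases, of which 306 are 5′ UTR, 2286 coding with the stop codon and 1532 3′ UTR), the sense strand was searched for the 7 bases complementary to bases 2 to 8 of 25 microRNA families. Of these, 8 families had 13 matches, 9 of them in the coding part and 4 in the 3′ UTR, and 17 families had none. The families miR-23 and miR-27 had 3 coding matches each, and the 4 matches in the 3′ UTR belong to different families. Their mature microRNAs are shown so that the pairing can be read, from RefSeq (GRCh38.p14), with the seed in capitals.
hsa-miR-23a-3p: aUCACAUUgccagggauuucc
hsa-miR-27a-3p: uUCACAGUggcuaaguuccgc
hsa-miR-92a-3p: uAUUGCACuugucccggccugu
hsa-miR-103a-3p: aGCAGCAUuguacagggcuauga
hsa-miR-30c-5p: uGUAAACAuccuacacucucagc
hsa-miR-19b-3p: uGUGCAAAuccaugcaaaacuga

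The 6 coding stretches that match miR-23 or miR-27 are shown because these families hold most of the coding matches, with the seed match in capitals and positions counted from 1 at the first base of the start codon.
miR-27 at 511 to 517: aattcagatacagaaACTGTGAttcaa
miR-27 at 1439 to 1445: tgcacaagtgcaaatACTGTGActatg
miR-27 at 1952 to 1958: ttcatcagtgcaggcACTGTGActtta
miR-23 at 1688 to 1694: acaatttgccatataAATGTGAgcatt
miR-23 at 1859 to 1865: aggattttcctcacaAATGTGAggtct
miR-23 at 2114 to 2120: gaaggaagatttaccAATGTGAgtatt
In 5 of these 6 the TGT inside the match is read as a codon, that of cysteine, a residue that helps to hold the zinc ion of a finger. Whether these codons lie at such a position was not examined. ACTGTGA occurred at least once in 23.5% and AATGTGA in 20.1% of 4168 coding stretches of the same length from other genes. The share of stretches with 3 matches was not counted.

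The 4 stretches of the 3′ UTR are given in order, with positions counted from the first base after the stop codon.
miR-92a at 916 to 922: ctctaatgtttaaagGTGCAATtttat
miR-103a at 1112 to 1118: acgctttgtgttagcATGCTGCaaatc
miR-30 at 1227 to 1233: gttttagttgcttcaTGTTTACattca
miR-19 at 1320 to 1326: gttcacctttctgttTTTGCACcagat
These letters occurred in 10.7% (GTGCAAT), 12.004% (ATGCTGC), 14.9% (TGTTTAC) and 14.05% (TTTGCAC) of 7489 stretches of 3′ UTR of the same length from other genes. The remaining coding matches were 1 each of miR-19 (TTTGCAC, positions 1160 to 1166), miR-21 (ATAAGCT, 1307 to 1313) and miR-26 (TACTTGA, 278 to 284). A match of letters is a description of the sequence and was not tied to a peak, since the peaks are listed on hg19 and no genome of that build was used here.

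The deposited table gives 1 average and 1 ratio per peak, and whole reads per library were worked out from them for 22473 of the 22506 peaks, all 41 of ZNF711 included. These peaks held 40347, 104109 and 95814 reads in emetine libraries 1 to 3, against 39338, 117182 and 102431 in control libraries 1 to 3. Numbering runs from the library where 1 read counts most to the one where it counts least, and antibodies were not assigned, so no label pairs a number between treatments. A normalised read number is the read number times that value, which was 8.86, 3.00 and 2.81 with emetine, against 8.002, 2.82 and 2.43 in the control. Libraries of like number had like shares of reads in noncoding exons. Library 1 of each treatment stood apart, with 45.2% (emetine) and 42.7% (control) of its reads in noncoding exons, against 6.02% and 12.9% in emetine libraries 2 and 3 and 6.16% and 12.6% in control libraries 2 and 3. Of 8 markers for 293S cells, 5 had peaks (NEFL, VIM, LIN28B, IGF2BP1 and HMGA2), while NEFM, KRT8 and KRT18 had none. Of 8 markers of other cell types 0 had any. RNA reads could be worked out only for genes with peaks, so a missing peak does not show missing expression. Cell identity was not tested by these counts. Over the whole table, a limma fit called 0 of 22473 peaks (0% of the table) and 0 of 6301 genes at an adjusted p of 0.05, with 238 peaks and 115 genes at an unadjusted p under 0.05.

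The 41 peaks lie between positions 84499007 and 84528303 of chromosome X (hg19, coordinates as listed) and are numbered 1 to 41 from the 5′ end. They fall in 3 classes of the authors' annotation: 3 peaks in the 5′ UTR, 18 in coding exons and 20 in the 3′ UTR, or 7.32%, 43.9% and 48.8%. Over all listed peaks those shares were 4.95% in 5′ UTRs, 33.2% in coding exons and 57.6% in 3′ UTRs. Peaks that overlap or touch form 34 sites, 28 of them with 1 peak, 5 with 2 and 1 with 3, and overlapping peaks can share reads. The 20 peaks of the 3′ UTR cover 626 bases of a span of 1434 bases, the 18 coding peaks cover 720 bases, and the 3 peaks of the 5′ UTR cover 140 bases. Peak width (end minus start) ran from 2 to 91 bases with a median of 33 bases. The widest gaps between neighbouring peaks, of 8799, 7741 and 4778 bases on the genome, lie between peaks 7 and 8, 5 and 6, and 10 and 11. Peaks 11 to 41 all start at or after position 84525036, near the 3′ end of the gene.

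**Figure D1:**
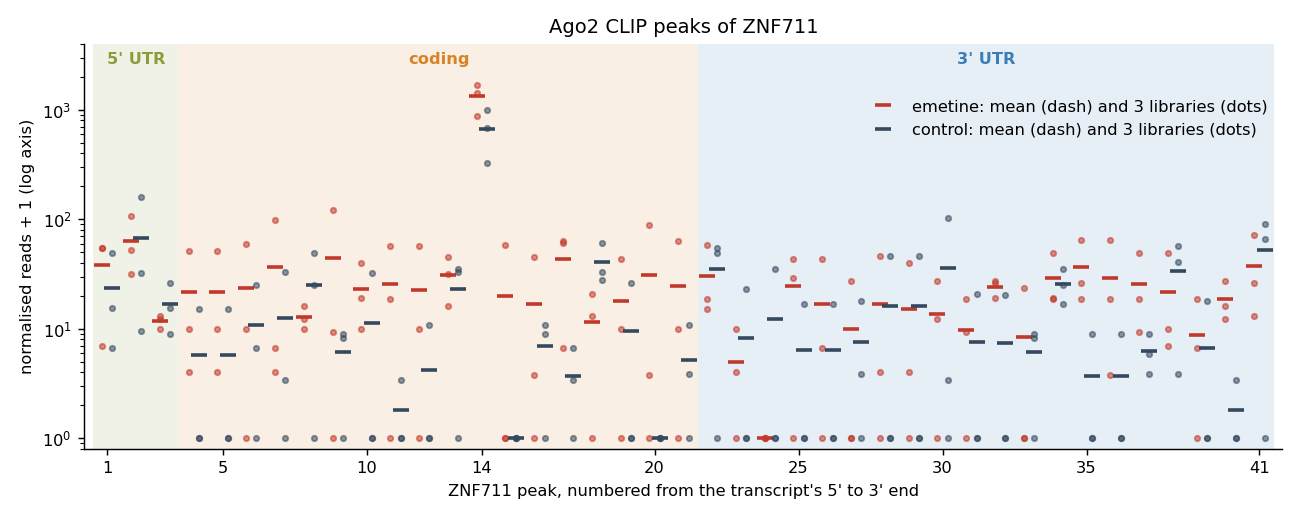
Normalised reads plus 1 (log axis) of the 41 ZNF711 peaks in 5′ to 3′ order, with emetine to the left of control at each peak, dots for the 3 libraries and dashes for their mean. Coding peak 14 lies between 328 and 1691 in all 6 libraries, above every other ZNF711 peak, the next highest having a mean of 64.7.

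One coding peak dominated. Peak 14 (chrX:84525697-84525724) had the highest mean normalised read number of all 22473 peaks of the series, 999.8 over the 6 libraries, where the next peak of the series had 836 and the median peak 8.49. Per base of its width it also ranked 1, at 37.0 normalised reads per base against a median of 0.291. In emetine libraries 1 to 3 its rank among all peaks was 30, 1 and 1, against 115, 1 and 1 in control libraries 1 to 3. The lower ranks are those of the libraries rich in noncoding RNA; among coding peaks alone peak 14 ranked 2 in emetine library 1 and 3 in control library 1. It took 0.248%, 0.541% and 0.528% of all listed reads with emetine, against 0.104%, 0.301% and 0.272% in the control libraries.

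Within ZNF711 the mean of peak 14 was 15.4 times that of the second peak, and the 6 libraries of the 2 peaks did not overlap. The remaining order was flat: of 40 pairs of neighbours in the order of means, 39 had ranges over the 6 libraries that overlapped. The 17 other coding peaks had means between 9.51 and 26.0 normalised reads, the 20 peaks of the 3′ UTR between 5.62 and 43.8, and the 3 peaks of the 5′ UTR between 13.3 and 64.7. The median ZNF711 peak, at 14.98, lay above the median of all peaks. Peak 14 made up 58.4% of the summed mean values of ZNF711. Among the 98 genes with at least 20 peaks this share ranked 1; the median was 9.56%, and TXNIP had 7.37% and ZNF367 18.3%.

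**Figure D2:**
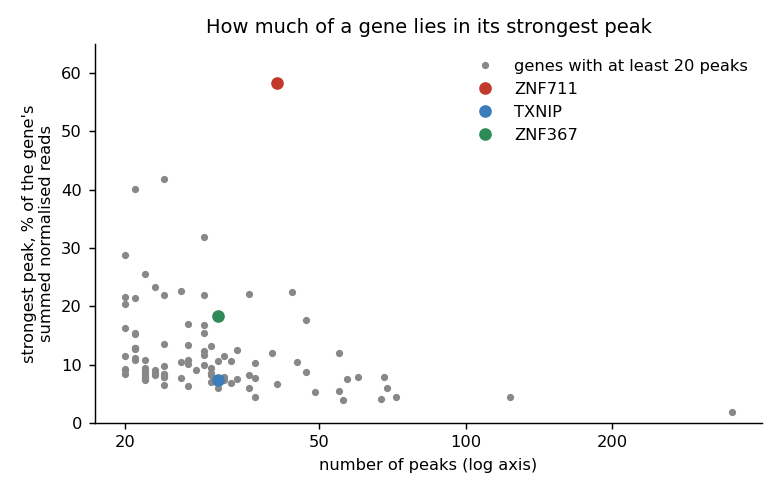
Share of a gene's summed normalised reads found in its strongest peak (vertical axis, percent) against its number of peaks (log axis) for 98 genes with at least 20 peaks. ZNF711 stands at 58.4% with 41 peaks, and TXNIP and ZNF367, with 31 peaks each, at 7.37% and 18.3%.

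Summed over its 41 peaks, ZNF711 had more Ago2 reads with emetine. The emetine libraries 1 to 3 held 199, 865 and 815 reads, which are 1764, 2598 and 2287 normalised reads. The control libraries 1 to 3 had 848, 1595 and 1182 normalised reads; the read totals were 1879 with emetine, against 1158 in the control. All 3 emetine libraries lay above all 3 control libraries, as they did for 2.98% of the 6301 genes. Set by library number, emetine was also the higher at all 3 numbers, as in 7.86% of genes. The means were 2216 ± 422 normalised reads with emetine and 1208 ± 374 in the control (SD, n = 3 libraries each). The log2 change, the emetine mean minus the control mean of log2(normalised reads + 1), was 0.90, where the median gene had 0.03. The ratio of depth-scaled read totals was 1.80 (exact 95% interval 1.67 to 1.94, which covers counting error only, since PCR reads are not independent molecules). A larger log2 change was found in 33.1% of all genes, and in 8.84% of the 215 genes with at least 300 reads.

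The RNA values lay the other way. The emetine RNA library held 15784 ZNF711 reads and the control RNA library 7231, which are 39616 normalised reads with emetine and 46096 in the control, at a value of 1 read of 2.51 (emetine) and 6.37 (control). The log2 difference of emetine from control was -0.22 (exact 95% interval -0.26 to -0.18, counting error only), with 1 library per treatment and so no replicate check. It was above that of 19.8% of the 5790 genes with at least 50 RNA reads, whose median was 0.01. In RNA from a whole culture, a change in the number of cells that express the gene and a change per cell cannot be told apart.

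The authors' deposited table expresses each peak relative to the RNA of its transcript. On that scale the deposited log2 ratio was above 0 for 35 ZNF711 peaks and below 0 for 6, with a median of 1.31; over all peaks 50.8% were above 0 and the median was 0.05. The deposited log2 average, in contrast, was low for ZNF711, with a median of -12.83 against -8.57 over all peaks, and 1.73% of all peaks lay under the ZNF711 median. Only peak 14, at -5.60, exceeded the overall median. Taken per gene in place of per peak, the log2 value of CLIP to RNA was lower than that of ZNF711 in 58.6% of genes. Per 1000 bases of transcript, ZNF711 had 3827 emetine and 1753 control RNA reads, where the median of 6053 genes with a known length had 83.8 and 31.9, so it ranked 49 in the emetine and 55 in the control library. Its CLIP signal of 415 normalised reads per 1000 bases ranked 45 of the 6053, with a median of 5.48.

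**Figure D3:**
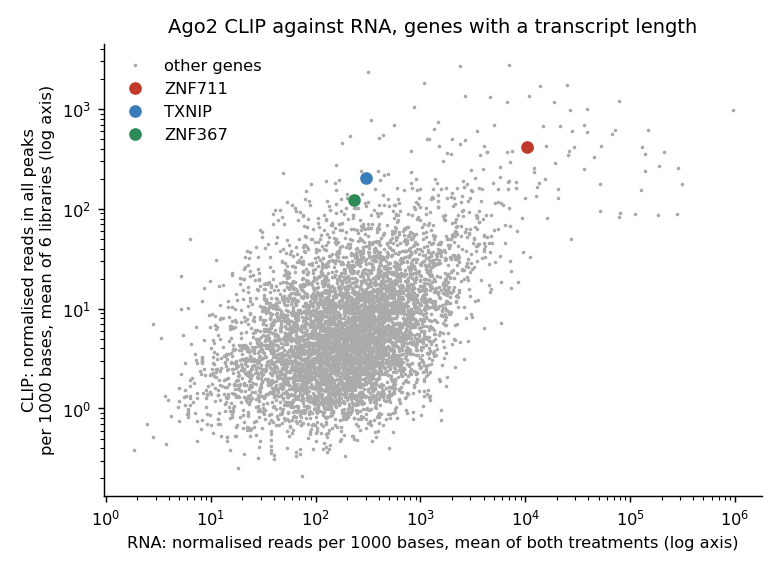
CLIP normalised reads in all peaks per 1000 bases of transcript (mean of the 6 libraries, log axis) against RNA normalised reads per 1000 bases (mean of both treatments, log axis) for 6053 genes. ZNF711 lies at the high end of both axes, with 415 on the CLIP axis, and TXNIP (202) and ZNF367 (123) at lower RNA.

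The strongest peak shared in the difference. Peak 14 had 100, 563 and 506 reads in emetine libraries 1 to 3, against 41, 353 and 279 in control libraries 1 to 3. In normalised reads these were 886, 1691 and 1420 with emetine, against 328, 997 and 677 in the control, with means of 1332 ± 409 for emetine and 667 ± 334 for control (SD, n = 3 libraries each). The treatments overlapped, since emetine library 1 lay below control library 2, but at each of the 3 library numbers emetine was the higher. The log2 change was 1.09 and the ratio of read totals 1.93 (1.75 to 2.13). As a share of all ZNF711 reads of a library, peak 14 had 50.3%, 65.1% and 62.1% with emetine, against 38.7%, 62.5% and 57.3% in the control. The Wilson 95% intervals ran from 43.4% to 57.1% in emetine library 1 and from 29.96% to 48.2% in control library 1. Without peak 14 the other 40 peaks summed to 877, 907 and 867 normalised reads with emetine and 520, 598 and 505 in the control, with no overlap and a ratio of 1.63 (1.45 to 1.83).

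Of the 4 groups of peaks, the 17 other coding peaks had the largest log2 change and ratio, although without control library 2 the log2 change was 1.45 for the strongest peak and 1.41 for these 17. Their sums were 44, 148 and 142 reads with emetine, against 23, 56 and 53 in the control. In normalised reads these were 390, 444 and 399 with emetine, against 184, 158 and 129 in the control, with means of 411 ± 29.3 for emetine and 157 ± 27.7 for control (SD, n = 3 libraries each). All emetine libraries lay above all control libraries, by more than the spread within either treatment. The log2 change was 1.40 and the ratio of read totals 2.81 (2.29 to 3.47). Of the 17 peaks, 16 had a log2 change above 0 and 1 below 0. As a share of ZNF711 reads these peaks had 22.1%, 17.1% and 17.4% with emetine, against 21.7%, 9.91% and 10.9% in the control, so the share was alike in library 1 of both treatments.

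**Figure D4:**
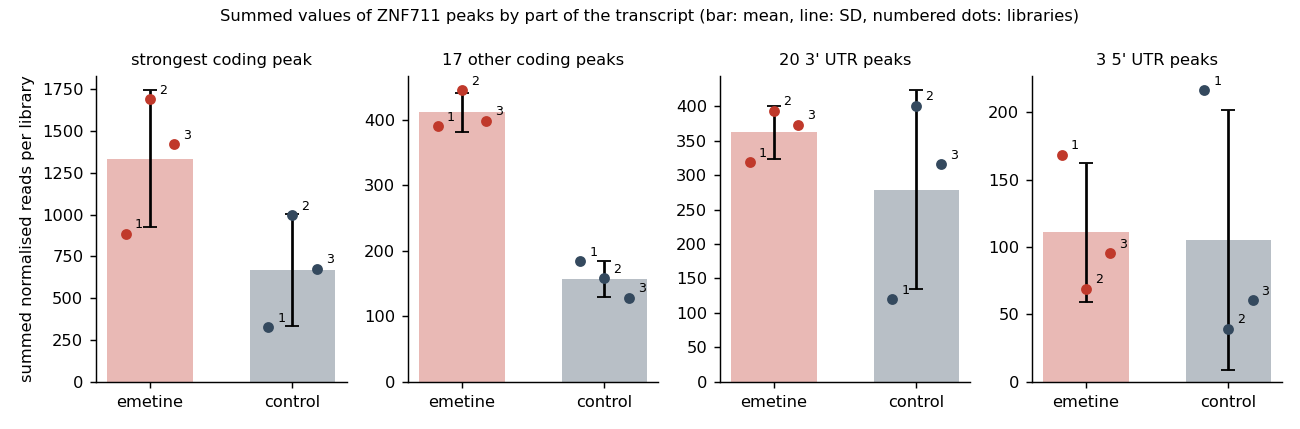
Summed normalised reads per library (vertical axes, each from 0) of the strongest coding peak, the 17 other coding peaks, the 20 peaks of the 3′ UTR and the 3 peaks of the 5′ UTR, with bars for means, lines for SD and dots numbered by library. The treatments are separate for the 17 other coding peaks (means 411 with emetine, 157 in the control) and overlap in the 3 other panels.

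The 3′ UTR differed little in read totals. Its 20 peaks held 36, 131 and 133 reads with emetine, against 15, 142 and 130 in the control. In normalised reads these were 319, 393 and 373 with emetine, against 120, 401 and 315 in the control, with means of 362 ± 38.5 for emetine and 279 ± 144 for control (SD, n = 3 libraries each). Control library 2 was the highest and control library 1 the lowest of the 6, so the treatments overlapped; emetine was the higher at library numbers 1 and 3 and the lower at number 2. The log2 change was 0.54, but 0.02 without control library 1 and 0.11 without library 1 of each treatment. The ratio of read totals was 1.16 with an exact interval of 0.98 to 1.37. Of the 20 peaks, 15 had a log2 change above 0 and 5 below 0. In the share of ZNF711 reads, the 3′ UTR had 18.1%, 15.1% and 16.3% with emetine, against 14.2%, 25.1% and 26.7% in the control: lower with emetine against control libraries 2 and 3, but not against control library 1.

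The 3 peaks of the 5′ UTR held 19, 23 and 34 reads with emetine, against 27, 14 and 25 in the control. In normalised reads these were 168, 69.1 and 95.4 with emetine, against 216, 39.5 and 60.7 in the control. Library 1, the library rich in noncoding RNA, was the highest in each treatment, and the treatments overlapped; the part of its composition in these values was not tested. The log2 change of 0.36 turned to -0.15 without control library 2, and the ratio of read totals was 1.28 (0.91 to 1.81). The 5′ UTR made up 9.55% of ZNF711 reads in emetine library 1 and 25.5% in control library 1, against 2.66% and 4.17% in emetine libraries 2 and 3 and 2.48% and 5.13% in control libraries 2 and 3.

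Peak by peak, the values were mostly higher with emetine but rested on few reads. The log2 change was above 0 for 34 of the 41 peaks and below 0 for 7, where 50.2% of all peaks were above 0; the median was 1.09 for ZNF711 and 0.01 over all peaks. The ratio of read totals, which lets deep libraries weigh more, was above 1 for 29 peaks and below 1 for 12, and for 7 peaks the 2 measures had opposite signs. The peaks held a median of 26 reads over the 6 libraries and at least 11. Only 7 had reads in all 6 libraries, and in 20 peaks 1 library gave at least 75% of the emetine value, as in 24 peaks of the control value. In 3 peaks (35, 37 and 40, all in the 3′ UTR) every emetine library exceeded every control library, against 2.54% of all peaks. Once peaks detected in fewer than 3 libraries were dropped, the share over the series rose to 5.61%, and ZNF711 still had 3. In 1 peak (18, coding) every emetine library lay below every control library, against 1.43% of all peaks. Set by library number, emetine was higher at all 3 numbers in 9 peaks, against 4.92% of all peaks, and lower at all 3 in 1, against 2.59%. Peaks 4 and 5, which overlap, held identical reads in all 6 libraries.

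**Figure D5:**
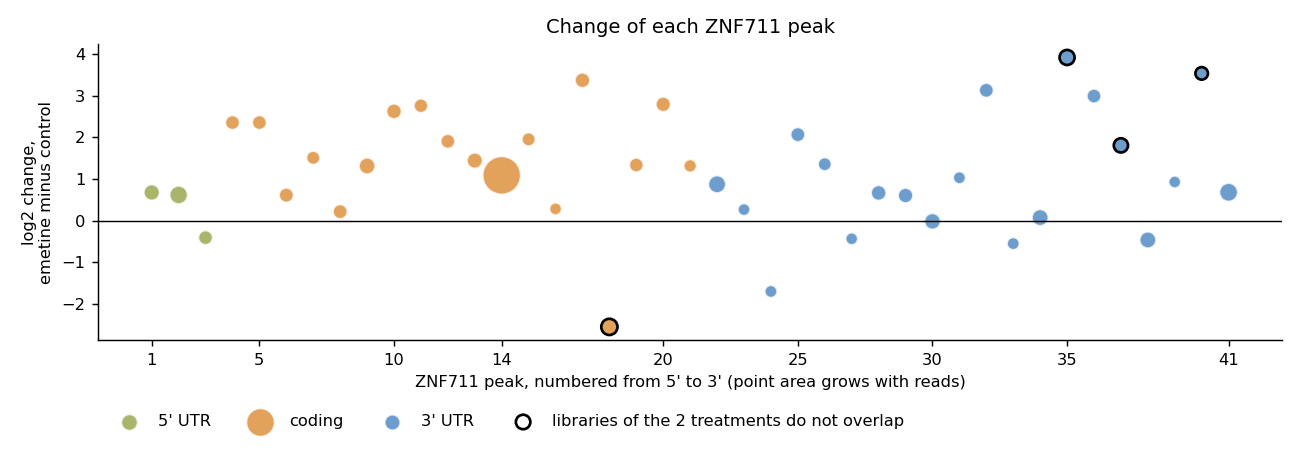
Log2 change (emetine minus control, vertical axis) of each ZNF711 peak in 5′ to 3′ order, coloured by part of the transcript, with points that grow with the reads of the peak and a black ring where the libraries of the 2 treatments do not overlap. Of the 41 points, 34 lie above 0; rings mark peaks 35, 37 and 40 above 0 and peak 18 below 0.

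Among coding peaks with large ratios, a single library often carried the emetine value. Peak 20 (chrX:84526574-84526602) had 0, 29 and 1 reads in emetine libraries 1 to 3 and 0 reads in each control library, at least 11.1-fold higher with emetine when the control total is set at 3 reads, where the exact 95% interval for the ratio begins at 8.49. Peak 11 (chrX:84525036-84525038) had 2, 0 and 20 reads with emetine, against 0, 0 and 1 in the control, a ratio of 24.4 with an interval of 3.95 to 1009. In both peaks 1 emetine library held nearly all reads and the treatments overlapped. Peak 13 (chrX:84525664-84525692), which ends just before the strongest peak begins, had 5, 5 and 11 reads with emetine, against 4, 0 and 14 in the control, with overlapping libraries. Peak 18 (chrX:84526048-84526094) went against the other coding peaks, with 0, 4 and 7 reads with emetine, against 4, 21 and 11 in the control, a log2 change of -2.56 and a ratio of 0.34 (0.16 to 0.68).

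In the 3′ UTR, the largest ratios lay in 1 site of 3 peaks. Peaks 35 (chrX:84527726-84527755) and 36 (chrX:84527741-84527761) overlap, and peak 35 had 2, 21 and 9 reads with emetine, against 1, 0 and 0 in the control. Peak 36 had 2, 21 and 1 reads with emetine, against 1, 0 and 0 in the control, so the 2 peaks can count the same reads. Their ratios were 35.6 (5.94 to 1448) and 26.7. Peak 34 (chrX:84527699-84527725), which touches peak 35, had 2, 6 and 17 reads with emetine, against 2, 12 and 10 in the control, a ratio of 1.16. Emetine libraries lay above the control libraries in peak 35, and overlapped them in peaks 34 and 36.

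Further 3′, peak 37 (chrX:84527918-84527958) had 2, 16 and 3 reads with emetine, against 1, 1 and 2 in the control, a ratio of 5.83 (1.97 to 23.4). Peak 40 (chrX:84528139-84528165) had 3, 5 and 4 reads with emetine, against 0, 0 and 1 in the control, a ratio of 13.3 (1.97 to 570). These were, with peak 35, the 3 peaks in which every emetine library lay above every control library, all on control totals of 4 reads or fewer.

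Other strong peaks of the 3′ UTR held fewer depth-scaled reads with emetine. Peak 41 (chrX:84528249-84528303), the most 3′ and the strongest of the 3′ UTR, had 8, 4 and 9 reads with emetine, against 0, 23 and 37 in the control. Its ratio of read totals was 0.39 (0.22 to 0.65), while its log2 change, which counts the 0 reads of control library 1 as much as the other libraries, was 0.68. Peak 22 (chrX:84526870-84526919) had 2, 19 and 5 reads with emetine, against 0, 17 and 22 in the control, a ratio of 0.74 (0.43 to 1.25). For both, the sign of the difference turned on control library 1. Peak 30 (chrX:84527345-84527389) had 3, 0 and 4 reads with emetine, against 0, 36 and 1 in the control, a ratio of 0.21 (0.08 to 0.48) that rested on control library 2. Peak 38 (chrX:84528048-84528081) had 1, 2 and 17 reads with emetine, against 5, 1 and 23 in the control, with overlapping libraries.

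At the 5′ end, peak 2 (chrX:84499046-84499103), the second strongest of the gene, had 12, 17 and 11 reads with emetine, against 20, 3 and 13 in the control. Its means were 62.8 ± 39.1 normalised reads with emetine and 66.7 ± 81.7 in the control (SD, n = 3 libraries each), a difference far under the spread. The log2 change of peak 2 was 0.61 and its ratio of read totals 1.23 (0.77 to 1.99), so the direction depended on the measure. Peak 1 (chrX:84499007-84499054), which overlaps it, had 6, 2 and 19 reads with emetine, against 6, 2 and 6 in the control, a ratio of 2.14 (1.09 to 4.42) that rested on emetine library 3. Peak 3 (chrX:84500927-84500969) had 1, 4 and 4 reads with emetine, against 1, 9 and 6 in the control, and its libraries overlapped.

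Set beside TXNIP, an inhibitor of thioredoxin, and ZNF367, another zinc finger gene, ZNF711 had the smallest CLIP log2 change and the only RNA difference below 0 of the 3. TXNIP had 45, 368 and 430 CLIP reads with emetine and 10, 155 and 129 in the control, a log2 change of 1.86, and its RNA log2 difference was 2.06 on 573 emetine and 54 control reads. ZNF367 had 46, 266 and 288 CLIP reads with emetine and 7, 93 and 146 in the control, a log2 change of 1.88, and its RNA log2 difference was 1.00 on 451 emetine and 89 control reads. All 3 genes thus had more Ago2 reads with emetine, against RNA that differed in size and sign. These differences between genes were not tested, as ZNF711 was picked on this contrast.

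Among the 155 listed genes whose symbol begins with ZNF, with 597 peaks, the median log2 change was 0.36 and 91 were above 0, where 51% of all genes were. ZNF711 held 22.0% of the CLIP reads of these genes, and it ranked 1 of the 151 with a known length by normalised CLIP reads per 1000 bases.

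The genes whose CLIP profile over the 6 libraries was most like that of ZNF711 were ADAM9, GPR137B, CERS2, MCL1 and BTG2. Likeness was the Euclidean distance between log2(summed normalised reads + 1) centred on each gene's mean, among 1085 genes with at least 100 reads. The distances were 0.36, 0.44, 0.51, 0.59 and 0.60, where the median gene had 2.72. ADAM9, a membrane protease, had 7, 28 and 30 reads with emetine, against 3, 22 and 15 in the control, and a log2 change of 0.98. The log2 changes of GPR137B, of the ceramide synthase CERS2, of the survival factor MCL1 and of the growth inhibitor BTG2 were 0.66, 0.61, 0.84 and 0.48.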

How the data were processed

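Ago2 CLIP and RNA-seq libraries of 293S cells with and without emetine were compared. The peak list holds coordinates, annotation and, per the file headers, a normalised log average and a log ratio of emetine to no emetine made by the authors. From the values, both deposited columns are on the natural log scale, and division by the natural log of 2 gave log2. The submitters' processing notes name hg19, Bowtie 0.12.8, TopHat and DESeq without roles. Not given in the sources used here are the peak caller, the start convention and how multiply mapping reads were treated.

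The deposited average plus or minus 0.5 times the ratio gives 1 value per treatment, equal to the mean over 3 libraries of ln(1 + reads × value of 1 read) minus the same for RNA. Whole reads that satisfy this within 2e-13 were found for 22473 of 22506 peaks (99.9%), and 33 peaks were left out. Of simulated peaks, 99.96% with emetine and 100.0% in the control were recovered exactly, and 0 wrongly. Each ZNF711 peak had exactly 1 solution per treatment. No count model was run on them.

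All 6301 genes were fitted with limma 3.58.1 (R 4.3.3), with a trend, on log2(normalised reads + 1), treatment alone (a block by library number was an alternative), and Benjamini-Hochberg adjustment at 0.05; the smallest adjusted p was 0.784 for peaks and 0.798 for genes. Ratios of read totals were scaled to the depth of each treatment, with exact binomial 95% intervals. Counting intervals do not cover differences between cultures. Lengths were those of GENCODE 29 transcripts matched by RefSeq ID, found for 96.1% of genes. Other steps used Python 3.11.15, scipy 1.17.1 and matplotlib 3.10.9.

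The members, gene lists and microRNA families were chosen with earlier results of these data known. Peaks given in full are the 8 with the largest mean and, among peaks with at least 20 reads, the 4 with the largest and the 4 with the smallest ratio of read totals, plus the peaks whose libraries do not overlap (37 and 40, chosen after their values were seen). Of 27 microRNA families listed, 25 were found in the RefSeq table. Alternatives covered the added constant, scaling, filters, identical peaks and each library left out.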

Additional observations from a re-analysis of the deposited data

How the results depend on the processing

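The log2 change of the ZNF711 sum, 0.90, stayed above 0 under all 15 alternatives. It was 0.83 with scaling by read totals, 0.73 with scaling by the median ratio over 1053 peaks (which shifts the median gene by -0.11), 0.71 without the strongest peak and 0.83 without library 1 of each treatment. With 1 library left out it ranged from 0.67 to 1.13. The same ranges were 0.65 to 1.45 for the strongest peak, 0.82 to 1.41 for all coding peaks, 1.26 to 1.52 for the 17 other coding peaks, 0.02 to 0.89 for the 3′ UTR and -0.15 to 1.07 for the 5′ UTR. The value of -0.15, without control library 2, was the single reversal; the cause was not tested. The 3′ UTR value of 0.02 was that without control library 1. The count of peaks higher in every emetine library, 3, became 4 to 8 with 1 library left out, where fewer libraries have to be separate. Over all peaks the share was then 7.45%, 6.20% and 6.39% without emetine library 1, 2 and 3 (7, 6 and 5 ZNF711 peaks) and 4.09%, 3.44% and 4.13% without control library 1, 2 and 3 (5, 8 and 4 ZNF711 peaks). The limma count was 0 for peaks and genes with 1 library left out or under 20 reads removed. Of the 5 genes most like ZNF711, 3 were shared when at least 300 reads were asked for and 1 when a correlation replaced the distance. Scaling by the median ratio, leaving out library 1 of each treatment, leaving out the strongest peak and leaving out libraries from the limma fits were chosen after seeing the data for some or all of these results. Antibodies were not assigned, so pairing could be tried by library number only. The correlation over genes of the deviations of like-numbered libraries from their treatment means was 0.17, 0.05 and 0.02 for numbers 1 to 3. Of the 6 libraries, 5 correlated best with their own number. Counting error in single libraries lowers such correlations, so they cannot decide whether the numbers are pairs. With a replicate block by library number, also added after seeing the data, limma called 2 peaks and 1 gene in place of 0 and 0. These calls include ZNF711 itself and its strongest peak. Since ZNF711 was picked on this contrast, they are no test of it and no evidence for a difference. Seed matches within peaks were not run, as no genome of the files' build was used here. Depth limits single peaks most: 12 of the 41 held fewer than 20 reads.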

Other observations

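Genes related to ZNF711 by family, partnership or disease differed in the direction of their Ago2 CLIP values. ZFX, a zinc finger relative on the X chromosome, had 4 peaks with 0, 13 and 0 reads with emetine and 2, 23 and 26 in the control, a ratio of read totals of 0.283 (0.141 to 0.528), while its RNA log2 difference was 0.31. PHF8, the histone demethylase that ZNF711 recruits, had 1 peak with 0 emetine and 11 control reads. All of these came from 1 control library, and 11 is the smallest read total of any peak worked out here. KDM5C, a histone demethylase gene also linked to X-linked intellectual disability, had 7 peaks with 62 emetine and 35 control reads, a ratio of 1.97 (1.28 to 3.07). The limma fit called 0 of 6301 genes, so the lack of a call for these 3 does not set them apart.

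Of 31 other genes for X-linked intellectual disability, 18 had peaks, 112 in all. The CLIP log2 change was above 0 for 8 and below 0 for 10, with a median of -0.92, where the median of all genes was 0.03. USP9X, HCFC1 and THOC2 had log2 changes above 0 (0.82, 0.42 and 0.05) but ratios of read totals below 1 (0.80, 0.85 and 0.56). No gene of the list showed the reverse. Several of these genes held few reads, such as ATRX with 0 emetine and 11 control reads. PHF6, a chromatin protein, had the highest log2 change, 3.74, with 65 emetine and 14 control reads. CUL4B, a ubiquitin ligase scaffold, had the lowest, -2.76, with 6 emetine and 72 control reads. DDX3X, an RNA helicase, had the most reads of the list, 522 with emetine and 435 in the control, a ratio of 1.33 (1.17 to 1.52). In 0 of the 18 did every emetine library lie above every control library, against 2.98% of all genes. In 0 did every emetine library lie below, a direction whose share over all genes is not given here. At such a share, 0 of 18 does not set these genes apart. The limma fit called 0 of them, as it called 0 of all 6301 genes. Of 6 neighbours of ZNF711 on the X chromosome, 1 (CHM) had a peak, with 0 emetine and 14 control reads, all from 1 control library.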
